A study of Mus musculus with 6 samples.

Results

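Immediate early genes are transcribed within minutes of a growth factor, cytokine or stress signal, without need for new protein. The 10 described here are Fos, Fosb, Jun, Junb, Jund, Egr1, Ier2, Klf6, Atf3 and Myc, found by gene symbol among 34352 genes, each matching 1 identifier. Most encode transcription factors: Fos and Jun family proteins pair through leucine zippers to form AP-1, EGR1 and KLF6 bind GC-rich DNA through zinc fingers, and MYC drives growth genes with its partner MAX. In liver these genes are known for their rapid induction after partial hepatectomy, injury and handling of the tissue. JUN is also needed for hepatocyte proliferation in mice, and cadmium ions are known inducers of Fos, Jun, Egr1, Myc and Atf3 in cultured cells.

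Liver RNA of wild-type C57BL/6 mice was sequenced after 90 days of daily gavage with cadmium chloride at 20 mg per kg (3 libraries) or at 0 mg per kg (3 control libraries). Per the labels the animals were male and 6 to 8 weeks old when housed, and the RNA is the fraction left unbound by an antibody to N6-methyladenosine, a methyl mark on RNA. Levels below are levels in that fraction, and a shift between the bound and unbound fractions cannot be told apart from a change of the transcript itself. The labels assign 6 mice to each group. Nothing in them ties an animal to a library, and the p-values therefore reflect spread among these libraries, which may be technical. These are single time points of a long exposure, not the minutes and hours after a dose. Xist, a transcript made from the silenced X of females, was present at 19.7 to 35.5 FPKM in every library, while 4 genes of the Y chromosome (Ddx3y, Uty, Kdm5d and Eif2s3y) summed to at most 6.76e-05 FPKM, which goes against the label of male mice in both groups. Reads recovered per library ran from 42115960 to 68587128. In control replicate 1 the 10 most abundant genes took 44.6% of reads, against 33.3% to 35.9% elsewhere, and mitochondrial rRNA was lowest in cadmium replicate 2 (0.277%) and control replicate 1 (0.265%), against 0.782% to 1.18% in the others. Listed hepatocyte markers summed to 17751 to 26138 FPKM in cadmium and 16945 to 25081 FPKM in control. Mt1 and Mt2, the metallothioneins that bind cadmium, were called higher in cadmium (log2 fold changes of 4.77 and 6.52, adjusted p = 0.0149 and 0.00688, limma); the call for Mt1 was lost without cadmium replicate 3 (adjusted p = 0.0838).

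Of the 10 genes, Klf6 was the one called higher in cadmium livers, at about 2 times its control level. No member was called lower. The other 9 either stayed below the filter or did not pass the test. A gene was tested if it had at least 1 FPKM (fragments per kilobase, relative to the size of a library) in at least 3 libraries, which 9908 genes and 7 members did: Jun, Junb, Jund, Egr1, Ier2, Klf6 and Myc. The main fit was limma on log2(FPKM + 1), and a call required an adjusted p below 0.05. Over all tested genes 7.86% were called higher and 1.82% lower, so 1 of 7 members higher and 0 of 7 lower is close to what the whole table gives. At an unadjusted p below 0.05, 2 members were higher (Klf6 and Junb) and 1 was lower (Jund), where 2674 of 9908 genes passed in either direction. With voom, limma's method for counts, on recovered reads Klf6 was called higher and Jund lower, where 2.62% of 18655 genes were higher and 2.23% lower. The deposited log2 values gave the same calls, against 3.85% and 4.98% of genes. Quantile normalization kept 1 higher and 0 lower, against 3.50% and 3.01%, and the replicate block left 0 and 0, against 1.86% and 0.646%. Over all genes the split was 779 higher and 180 lower in the main fit, 347 and 298 after quantile normalization, and 381 and 493 on the deposited scale. The median log2 fold change of the 7 was -0.27, and that of all tested genes was 0.09. The plot of every member by library shows wide controls: for 6 of the 7 tested members, all but Klf6, the range over the control libraries was wider than the gap between the group means, as it was for 66.2% of all tested genes.

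**Figure D1:**
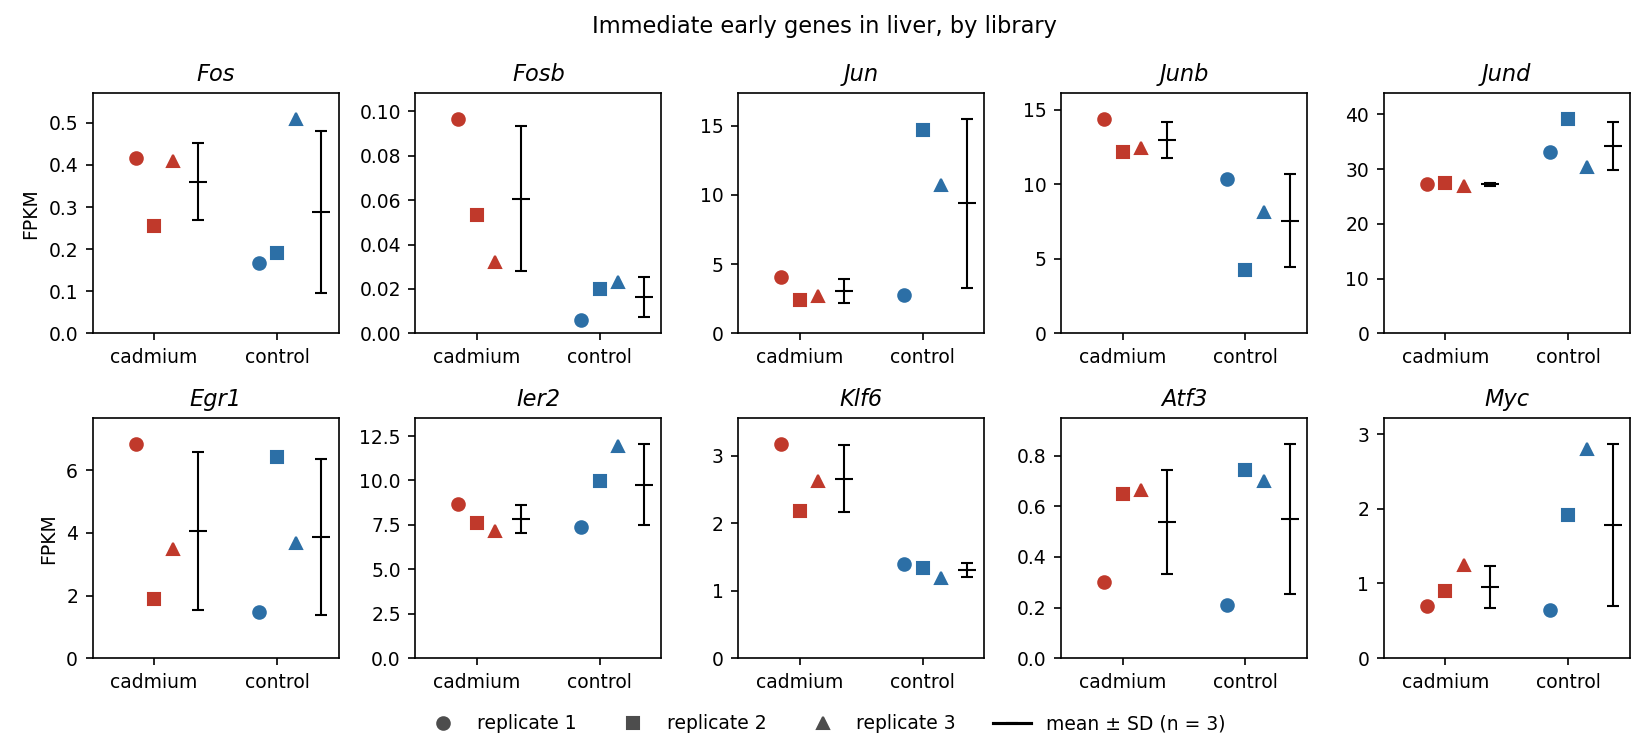
FPKM of each of the 10 genes (1 panel each, its own linear axis) in 3 cadmium libraries, red, and 3 control libraries, blue, with the replicate number as the marker shape and the mean ± SD in black. Klf6, Junb and Fosb lie higher in every cadmium library than in any control library, Jund lies lower, and the Jun panel shows control replicate 1 at 2.74 FPKM beside 14.7 and 10.7 in the other controls.

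Klf6 (ENSMUSG00000000078; chromosome 13, 5861482 to 5870394, plus strand, mm10) encodes a Krüppel-like zinc-finger factor, known in rat from activated hepatic stellate cells, where it turns on collagen and TGF-beta genes. It was at 3.18, 2.18 and 2.63 FPKM in cadmium replicates 1 to 3, against 1.39, 1.35 and 1.19 FPKM in control replicates 1 to 3. The lowest cadmium library lay well above the highest control library, and the controls were close together. The log2 fold change was 0.66 (SE 0.11, 95% interval 0.40 to 0.92, adjusted p = 0.0167, limma), with a ratio of means of 2.04. Within the batches of the labels, each with 1 cadmium and 1 control library, the difference was 0.80, 0.44 and 0.73. With the replicate block the adjusted p was 0.0516, without cadmium replicate 3 it was 0.0719 and without control replicate 3 it was 0.0562, so the call rests on each of these. In the authors' deposited table the difference for Klf6 was 0.83 on the log2 scale, with an FDR of 1.25e-05, the smallest FDR of the 10.

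Several markers of non-parenchymal cells were also called higher, though not all listed markers were. The lists were chosen with earlier results of these data known. Over all tested genes 7.86% were called higher and 1.82% lower. Of 8 tested stellate cell markers 6 were called higher and 0 lower, and the summed FPKM of the 10 listed markers was 46.7 to 49.1 in cadmium and 21.96 to 32.05 in control. Of 11 tested Kupffer cell and macrophage markers 5 were called higher, with a sum over 12 markers of 108 to 124 FPKM in cadmium and 51.4 to 88.4 in control. Of 10 sinusoidal endothelial markers 2 were called higher, with a sum of 52.8 to 67.9 FPKM in cadmium and 36.8 to 56.8 in control. With the replicate block 3 stellate, 2 Kupffer and macrophage and 0 endothelial markers were called higher, against 1.86% of all tested genes. Without cadmium replicate 3 the counts were 2, 0 and 0, against 78 of all 9908 tested genes. Quantile normalization and voom each left 0 endothelial calls. The Kupffer cell marker Timd4, below the filter, lay the other way, at 0.111, 0.0684 and 0.0943 FPKM in cadmium and 0.582, 0.725 and 0.396 FPKM in control, with no overlap. Vsig4, Marco and Hand2 were tested, not called, and had log2 fold changes of -0.19, -0.05 and -0.05. None of these 3 lists had a marker at 0 in any library. The neutrophil list summed to 1.79 to 2.12 FPKM in cadmium and 0.365 to 0.960 in control, with Ly6g and Mpo at 0 in all 6 libraries. Its 1 tested marker, S100a9, was called higher (log2 fold change 0.83, adjusted p = 0.0337, limma) and was at 0 in 2 control libraries. With the block its adjusted p was 0.0657. Of 9 tested hepatocyte markers 1, Fgb, was called higher (log2 fold change 0.68, adjusted p = 0.0459, limma, and 0.110 with the block). Of 2 tested cholangiocyte and 5 tested erythroid markers 0 were called by limma or by voom, 1 and 0 having an unadjusted p below 0.05, and no lymphocyte marker reached the filter. In whole liver a change in the number of cells of a type cannot be told apart from a change of RNA per cell. The part of these cells in the level of Klf6 was not tested.

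The promoters of Klf6, Jun and Junb are shown because Klf6 was the member called and Jun and Junb lay in opposite directions in these livers. The sequences are those of RefSeq (GRCm38.p6), 250 bases before to 50 after the RefSeq start, 5′ to 3′ on the strand of the gene. They lie at chr13:5861239-5861538 (plus strand), chr4:95052173-95052472 (minus strand) and chr8:84978699-84978998 (minus strand). Capitals mark matches to the motifs described next.
Klf6: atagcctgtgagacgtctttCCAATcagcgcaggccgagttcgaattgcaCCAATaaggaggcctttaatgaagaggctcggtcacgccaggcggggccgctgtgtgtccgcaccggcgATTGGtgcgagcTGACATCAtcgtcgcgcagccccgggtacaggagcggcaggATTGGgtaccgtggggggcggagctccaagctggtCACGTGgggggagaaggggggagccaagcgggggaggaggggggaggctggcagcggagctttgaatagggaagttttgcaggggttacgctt
Jun: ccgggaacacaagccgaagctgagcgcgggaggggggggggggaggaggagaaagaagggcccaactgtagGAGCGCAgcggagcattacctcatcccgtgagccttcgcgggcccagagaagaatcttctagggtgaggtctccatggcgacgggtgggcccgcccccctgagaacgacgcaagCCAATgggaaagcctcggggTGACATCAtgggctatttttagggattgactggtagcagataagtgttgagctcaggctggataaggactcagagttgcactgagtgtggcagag
Junb: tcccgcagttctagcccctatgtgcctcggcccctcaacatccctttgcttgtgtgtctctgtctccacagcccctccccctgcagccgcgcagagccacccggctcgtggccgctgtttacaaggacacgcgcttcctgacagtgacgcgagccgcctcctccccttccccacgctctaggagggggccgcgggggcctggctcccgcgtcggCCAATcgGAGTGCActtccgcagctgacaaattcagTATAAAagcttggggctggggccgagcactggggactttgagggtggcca

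RefSeq windows of 7 of the 10 genes were used: Fos, Fosb, Jun, Junb, Jund, Klf6 and Atf3. Egr1, Ier2 and Myc were not searched. Each of the 7 windows was searched on both strands for 9 motifs. TGACATCA, a variant of the AP-1 and CRE sites known from the JUN promoter, was found in Jun (bases 206 to 213 of the window) and Klf6 (bases 132 to 139), and in 3.62% of 32851 promoter windows of the same length. The AP-1 site TGACTCA was in 0 of the 7 windows and in 5.20% of all windows. TGACGT, the core of the site of CREB, was in 2 (Fos and Atf3) and in 7.51% of all. TATAAA was in Fos and Junb and in 13.6% of all windows. The Junb match, at bases 251 to 256, begins 30 bases before the start of the gene in the GENCODE annotation. CCAAT was in 4 windows (Atf3, Jun, Junb and Klf6, the last with 4 matches) and in 37.4% of all. The E-box CACGTG, the site of MYC and MAX, was in Klf6 and in 7.15% of all windows. The EGR site (GCGGGGGCG or GCGTGGGCG) was in Fosb and in 3.47% of all, and the metal response element core (TGCACNC or TGCGCNC) was in Atf3, Jun and Junb and in 25.7% of all. The CArG box, the site of the serum response factor, was in 0 of the 7 windows and in 1.63% of all. Sequence more than 250 bases before a RefSeq start was not searched, so a count of 0 does not mean that a gene lacks the site. The window of Egr1 was not among the 7. The RefSeq start of Jund lies 1210 bases before the GENCODE start of that gene, and the last 50 bases of its window were in no GENCODE transcript of Jund. The Jund window may therefore miss the promoter in use, though it counts among the 7. The last 50 bases of the Junb window were also in no GENCODE transcript of Junb, in full length. The RefSeq start of Atf3 lies 34706 bases inside the gene, where the last 50 bases of its window match a GENCODE transcript. These matches describe letters in the windows and were not tied to the levels below.

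Jun (chromosome 4, 95049034 to 95052222) encodes the AP-1 subunit that, among the Jun proteins, most strongly activates transcription. It was at 4.05, 2.44 and 2.72 FPKM in cadmium replicates 1 to 3, against 2.74, 14.7 and 10.7 FPKM in control replicates 1 to 3. The groups overlapped: control replicate 1 lay among the cadmium libraries, and the other 2 controls were far above all cadmium libraries. The log2 fold change was -1.14 (SE 0.56, 95% interval -2.55 to 0.28, adjusted p = 0.268, limma). Without control replicate 1 it was -1.76 with an adjusted p of 0.0150, without both libraries of low mitochondrial rRNA it was -1.64 with an adjusted p of 0.0207, and without control replicate 2 it was -0.72 with an adjusted p of 0.428. Within batches the difference was 0.43, -2.19 and -1.65. The antisense gene Junos, which overlaps Jun, was at 0.0453 to 0.0625 FPKM in cadmium and 0.0616 to 0.111 FPKM in control.

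Junb (chromosome 8, 84974484 to 84978718) encodes a subunit with weaker activity that can restrain JUN. It was at 14.4, 12.1 and 12.5 FPKM in cadmium livers, against 10.4, 4.23 and 8.14 FPKM in control livers. The groups did not overlap, but control replicate 1 came close to the cadmium libraries. The log2 fold change was 0.77 (SE 0.28, 95% interval 0.11 to 1.44, unadjusted p = 0.0290, adjusted p = 0.135, limma), and within batches it was 0.44, 1.33 and 0.56. Without control replicate 2 it was 0.45 (adjusted p = 0.110). Junb overlaps Prdx2 on the other strand, a peroxiredoxin gene at 16.2 to 20.1 FPKM in cadmium and 15.7 to 19.6 FPKM in control. Whether the counting used strand is not given in the sources used here, so reads of the overlap could belong to either gene.

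The levels of Jun and Junb ran in opposite directions within the control group. The ratio of Jun FPKM to Junb FPKM was 0.282, 0.201 and 0.218 in cadmium replicates 1 to 3, against 0.265, 3.47 and 1.32 in control replicates 1 to 3. All 3 cadmium libraries and control replicate 1 thus held several times more Junb than Jun, while control replicates 2 and 3 held more Jun. The ratio was chosen after its values were seen and was not tested.

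Jund (chromosome 8, 70698949 to 70700616) encodes the subunit that is made constitutively and responds least to stimulation. It had the highest level of the 10 genes in every library, at 27.4, 27.4 and 26.9 FPKM in cadmium livers, against 33.2, 39.1 and 30.4 FPKM in control livers. Every cadmium library lay below every control library, and the cadmium libraries were nearly equal, with a coefficient of variation of 1.00% against 13.0% in control. The log2 fold change was -0.31 (SE 0.12, 95% interval -0.60 to -0.03, unadjusted p = 0.0367, adjusted p = 0.154, limma). Within batches it was -0.27, -0.50 and -0.17. The call depended on the scale: limma on the deposited log2 values gave -0.50 (adjusted p = 0.0349), and voom on recovered reads gave -0.50 (adjusted p = 0.0350). In the authors' deposited table the FDR of Jund was 0.000852. Among the 7 tested members 2 lay higher without overlap (Klf6 and Junb) and 1 lower (Jund), against 26.4% and 7.24% of all tested genes, or 33.6% in either direction.

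**Figure D2:**
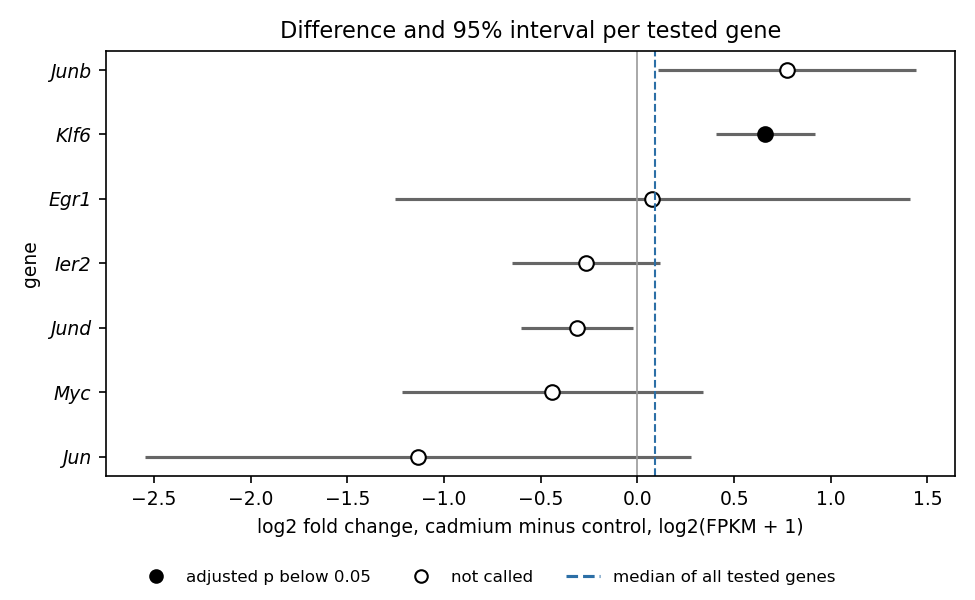
Log2 fold change (cadmium minus control, on the log2(FPKM + 1) scale) of the 7 tested genes with the 95% interval from limma, filled where the adjusted p was below 0.05. Klf6 is filled at 0.66, the interval of Junb starts at 0.11, and that of Jun reaches from -2.55 to 0.28; the dashed line is the median of all 9908 tested genes, 0.09.

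Fos (chromosome 12, 85473890 to 85477273), the prototype immediate early gene and the partner of JUN in AP-1, was scarce in every library and below the filter. It had 53, 52 and 78 recovered reads (0.417, 0.255 and 0.408 FPKM) in cadmium replicates 1 to 3, against 28, 28 and 64 reads (0.166, 0.190 and 0.509 FPKM) in control replicates 1 to 3. The groups overlapped, since control replicate 3 was the highest of all. A voom fit to genes with at least 10 recovered reads in at least 3 libraries gave a log2 difference of 0.32 (SE 0.41, adjusted p = 0.704).

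Fosb (chromosome 7, 19302696 to 19310051), a close relative of Fos, was the scarcest of the 10. It had 32, 29 and 17 reads (0.0964, 0.0534 and 0.0322 FPKM) in cadmium livers, against 4, 9 and 8 reads (0.00625, 0.0199 and 0.0230 FPKM) in control livers. Every cadmium library was above every control library. In the voom fit the difference was 1.42 on the log2 scale (SE 0.59, unadjusted p = 0.0365, adjusted p = 0.195), so the difference did not pass the correction over 18655 genes.

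Atf3 (chromosome 1, 191170296 to 191218039) encodes a bZIP factor of the stress response that can pair with Jun proteins. It had 34, 119 and 114 reads (0.299, 0.650 and 0.663 FPKM) in cadmium livers, against 33, 99 and 80 reads (0.210, 0.743 and 0.699 FPKM) in control livers. In both groups replicate 1 was low and the other 2 libraries were alike. The voom log2 fold change was -0.01 (SE 0.50, adjusted p = 0.996).

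Egr1 (chromosome 18, 34859823 to 34864984), a zinc-finger factor induced through the serum response factor, was the most variable of the tested members in cadmium livers. It was at 6.84, 1.90 and 3.47 FPKM in cadmium replicates 1 to 3, against 1.48, 6.44 and 3.69 FPKM in control replicates 1 to 3. Each group held 1 high, 1 low and 1 middle library, and the ranges nearly coincided. The log2 fold change was 0.08 (SE 0.53, 95% interval -1.26 to 1.41, adjusted p = 0.948, limma), an interval that leaves room for more than a doubling in either direction. Within batches the difference was 1.66, -1.36 and -0.07.

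Ier2 (chromosome 8, 84661331 to 84662852), a nuclear protein induced by growth factors, was at 8.70, 7.61 and 7.18 FPKM in cadmium livers, against 7.40, 9.96 and 12.0 FPKM in control livers. The cadmium libraries lay near the low end of the control range, where control replicate 1 also was. Its log2 fold change was -0.27 (SE 0.16, 95% interval -0.65 to 0.12, adjusted p = 0.341, limma). It was -0.12 (adjusted p = 0.673) without control replicate 3, -0.44 (0.0839) without control replicate 1, -0.42 (0.135) without both libraries of low mitochondrial rRNA, and -0.48 (0.0921) on the deposited log2 scale. In the authors' deposited table its difference was -0.48 with an FDR of 0.0248. That table held 3 of the 10 genes at an FDR below 0.05: Klf6 higher, and Jund and Ier2 lower. Of its 34352 genes 3.72% were higher and 3.15% lower at that FDR.

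Myc (chromosome 15, 61985391 to 61990374), whose product raises ribosome and nucleotide synthesis as cells enter growth, was at 0.704, 0.900 and 1.25 FPKM in cadmium livers, against 0.644, 1.92 and 2.80 FPKM in control livers. Control replicate 1 was below the cadmium libraries, and control replicates 2 and 3 were above them. Its log2 fold change was -0.44 (SE 0.32, 95% interval -1.22 to 0.34, adjusted p = 0.434, limma). Without control replicate 1 it was -0.78 with an adjusted p of 0.0386, without control replicate 3 it was -0.18 (0.740), and without both libraries of low mitochondrial rRNA it was -0.76 (0.0827). On the deposited log2 scale it was -0.88 (0.367). Within batches it was 0.05, -0.62 and -0.75.

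Levels per gene length ordered the 10 genes in a similar way in both groups. In cadmium livers Jund was highest by mean FPKM (27.2 ± 0.273, SD, n = 3), then Junb (13.0 ± 1.21), Ier2 (7.83 ± 0.781), Egr1 (4.07 ± 2.53) and Jun (3.07 ± 0.862). In control livers Jund (34.3 ± 4.44) was followed by Ier2 (9.77 ± 2.28), Jun (9.38 ± 6.08), Junb (7.58 ± 3.10) and Egr1 (3.87 ± 2.48). In cadmium the ranges of neighbouring genes overlapped for Egr1 and Jun, Jun and Klf6, and Atf3 and Fos. In control they overlapped for all neighbours from Ier2 down to Klf6, and for Atf3 and Fos. Fos and Fosb were the lowest in both groups.

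The spread between libraries was wider in control than in cadmium for most of the 10 genes, as it was for most tested genes. The coefficient of variation of FPKM was smaller in cadmium for 9 of the 10 genes, Klf6 being the exception, and for 6 of the 7 tested, against 63.7% of all tested genes. It was 28.04% in cadmium and 64.85% in control for Jun, and 9.28% in cadmium and 40.96% in control for Junb. The groups were nearly equal for Fosb (53.9% in cadmium and 54.4% in control) and Egr1 (62.0% in cadmium and 64.1% in control). The highest control library was at least 2 times the lowest for 4 of the 7 tested members (Jun, Junb, Egr1 and Myc), against 8.28% of all tested genes. Among cadmium libraries this held for 1 of the 7, Egr1, against 4.70% of tested genes. Fos, Fosb and Atf3 also varied by at least 2 times between control libraries, at read counts as low as 4.

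Control replicate 1 was the lowest of the 3 controls for 7 of the 10 genes (Fos, Fosb, Jun, Egr1, Ier2, Atf3 and Myc) and the highest for Junb and Klf6. Of the 7 tested members it was the lowest for 4, where it was the lowest for 50.6% of all tested genes. It is the library in which the 10 most abundant genes took the largest share of reads. The part of that share in the levels of these genes was not tested. Cadmium replicate 1 was the highest of the cadmium libraries for 7 of the 10 genes and for 5 of the 7 tested, where it was the highest for 28.2% of all tested genes.

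**Figure D3:**
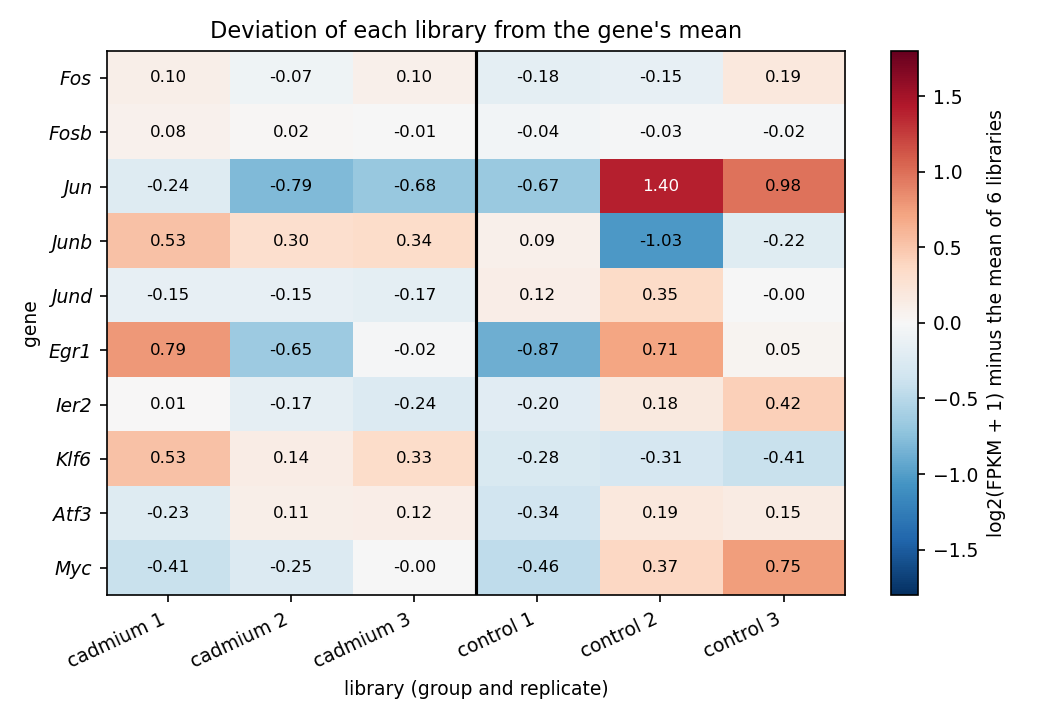
Deviation of log2(FPKM + 1) in each library from the mean of the 6 libraries, for the 10 genes (rows) in the 3 cadmium and 3 control libraries (columns); red is above and blue below the mean. Jun stands at 1.40 and 0.98 in control replicates 2 and 3 and at -0.67 in control replicate 1, while Klf6 is above its mean in all cadmium columns and below it in all control columns.

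Other AP-1 subunits were mostly too scarce to test. Of 9 listed (Fos-like, Batf, Jdp2 and small Maf proteins) 3 were tested, 1 was called higher and 1 lower. The shares over all tested genes were 7.86% higher and 1.82% lower. Mafk, a small Maf partner of NRF2 and BACH1, was at 4.31, 3.73 and 4.45 FPKM in cadmium, against 2.30, 1.61 and 1.86 FPKM in control (log2 fold change 0.83, SE 0.11, adjusted p = 0.00994, limma). Maff, another small Maf protein, was at 1.85, 2.01 and 1.82 FPKM in cadmium, against 3.59, 3.80 and 2.79 FPKM in control (log2 fold change -0.60, adjusted p = 0.0190, SE 0.10), and the block gave an adjusted p of 0.0516. For both the groups did not overlap. Leaving out cadmium replicate 3 gave adjusted p of 0.0510 for Mafk and 0.0865 for Maff, and leaving out cadmium replicate 1 gave 0.0656 for Maff.

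Among 13 tested immediate early transcription factors outside the 10, 2 were called higher and 1 lower, with a median log2 fold change of 0.44. All tested genes had 7.86% higher and 1.82% lower, with a median of 0.09. Cebpb, a bZIP factor of the acute phase response and of liver regeneration, fell to 34.9, 46.9 and 40.0 FPKM in cadmium, against 81.8, 107 and 110 FPKM in control (log2 fold change -1.27, SE 0.17, adjusted p = 0.00994, limma). Id2, an inhibitor of helix-loop-helix factors, was at 18.2, 12.9 and 18.3 FPKM in cadmium, against 7.73, 8.29 and 8.52 FPKM in control (log2 fold change 0.91, adjusted p = 0.0143, and 0.0516 with the block). Nfil3, a repressor that also acts in the clock, was at 5.89, 5.63 and 5.73 FPKM in cadmium, against 3.91, 3.81 and 2.99 FPKM in control (log2 fold change 0.57, adjusted p = 0.0198, and 0.0584 with the block). After quantile normalization 2 were called higher and 4 lower, against 3.50% and 3.01% of all tested genes. With the block 0 were called higher and 1 lower, against 1.86% and 0.646%. Leaving out cadmium replicate 3 gave adjusted p of 0.0511 for Cebpb, 0.0680 for Id2 and 0.0865 for Nfil3, and leaving out cadmium replicate 1 gave 0.0520 for Id2 and 0.0680 for Nfil3.

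Of 24 tested immediate early genes of other function, such as phosphatases, RNA-binding proteins and growth arrest genes, 1 was called higher and 0 lower at a median of -0.06. Over all tested genes 7.86% were called higher and 1.82% lower, at a median of 0.09. With the block 0 were higher and 1, Plk3, was lower, against 1.86% and 0.646% of all tested genes. Plk2, a polo-like kinase, was at 2.04, 1.60 and 1.53 FPKM in cadmium, against 1.09, 0.822 and 0.897 FPKM in control (log2 fold change 0.49, adjusted p = 0.0269, limma), a call that was lost with the block (0.0519), after quantile normalization (0.0769) and without any 1 library except control replicate 1 (0.0533 to 0.0792). Sik1 and Plk3, chosen after their values were seen, resembled Jun and Myc in that control replicate 1 lay nearest to the cadmium libraries. Sik1, a salt-inducible kinase, was at 2.09, 2.90 and 2.35 FPKM in cadmium, against 4.40, 13.6 and 11.9 FPKM in control. Its log2 fold change was -1.55 (adjusted p = 0.0677, limma). Plk3 was at 2.62, 4.78 and 4.47 FPKM in cadmium, against 7.83, 20.1 and 13.7 FPKM in control. The log2 fold change of Plk3 was -1.53 (adjusted p = 0.0514, limma). Its adjusted p was 0.0349 with the block and 0.0445 after quantile normalization.

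Of 21 tested upstream kinases 1 was called higher and 1 lower, with a median of 0.01. The values over all tested genes were 7.86%, 1.82% and 0.09. After quantile normalization 0 were higher and 3 lower (Map2k3, Map2k6 and Mapk14), against 3.50% and 3.01% of all tested genes. With the block 0 were called in either direction, against 1.86% higher and 0.646% lower. Map2k6, a kinase that activates p38, was at 1.07, 1.08 and 0.797 FPKM in cadmium, against 2.59, 1.66 and 2.35 FPKM in control (log2 fold change -0.68, adjusted p = 0.0219, and 0.0660 with the block). Its adjusted p was 0.0629 without cadmium replicate 1, 0.0890 without cadmium replicate 3 and 0.0671 without control replicate 3. Rps6ka3, a kinase downstream of ERK that phosphorylates factors on immediate early promoters, was at 1.32, 1.35 and 1.65 FPKM in cadmium, against 0.948, 0.959 and 0.968 FPKM in control (log2 fold change 0.32, adjusted p = 0.0481). Its adjusted p was above 0.05 without any 1 of the 6 libraries (0.0876 to 0.189), with the block (0.105) and after quantile normalization (0.193). Egfr, the growth factor receptor, was at 276, 19.9 and 19.0 FPKM in cadmium, against 19.6, 5.54 and 7.38 FPKM in control, so a single cadmium library stood far above the rest. Egfr was named after its values were seen. Of 10 tested upstream transcription factors and 9 tested partners and repressors of MYC and EGR proteins, 0 were called by limma or voom. In limma 2 and 1 of them had an unadjusted p below 0.05, as had 2674 of all 9908 tested genes.

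Of 19 tested MYC targets 0 were called higher and 2 lower, with a median of -0.08. Across all tested genes 7.86% were higher and 1.82% lower, with a median of 0.09. Srm, which makes spermidine, was at 4.49, 5.86 and 5.15 FPKM in cadmium, against 11.2, 15.4 and 10.5 FPKM in control (log2 fold change -1.10, SE 0.16, adjusted p = 0.0117, limma, and 0.0532 without cadmium replicate 3). Nolc1, a nucleolar phosphoprotein, was at 1.17, 1.66 and 1.19 FPKM in cadmium, against 1.89, 2.91 and 2.60 FPKM in control (log2 fold change -0.56, adjusted p = 0.0446, and 0.0549 with the block). The Nolc1 call was also lost without cadmium replicate 1 or 3 or control replicate 2 or 3, with adjusted p of 0.105 to 0.153.

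Of 8 tested genes listed as AP-1 targets 4 were called higher and 0 lower, with a median of 0.90. Mt1, Mt2 and Hmox1 are among these 4 and answer to metal and NRF2 signals as well. The median of 0.90 includes Mt1 and Mt2. The values over all tested genes were 7.86% higher, 1.82% lower and a median of 0.09. Of the tested targets not called, Spp1 and Lcn2 lay higher (log2 fold changes of 0.95 and 1.13). Ccnd1 and Vegfa lay lower (-0.82 and -0.14). Without cadmium replicate 3 the list kept 1 call, that of Mt2, where 78 of all 9908 tested genes were called higher. Cd44, the hyaluronan receptor, was at 1.21, 1.48 and 1.61 FPKM in cadmium, against 0.443, 0.642 and 0.505 FPKM in control (log2 fold change 0.67, SE 0.09, adjusted p = 0.0114, limma, and 0.0561 without cadmium replicate 3). Hmox1, which degrades heme, was at 5.75, 7.44 and 7.96 FPKM in cadmium, against 2.47, 4.72 and 3.36 FPKM in control (log2 fold change 0.85, SE 0.20, adjusted p = 0.0402). The Hmox1 call was lost without any 1 library except control replicate 2 (0.0618 to 0.140).

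Many calls were lost without cadmium replicate 3. Of the 12 pathway genes named above as called, leaving out Mt1 and Mt2, 0 were called without that library, against 4 without cadmium replicate 1 and 9 without cadmium replicate 2. The counts were 10, 9 and 7 without control replicates 1 to 3. Over all genes 78 were called higher and 23 lower without cadmium replicate 3, against 779 and 180 with all libraries.

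**Figure D4:**
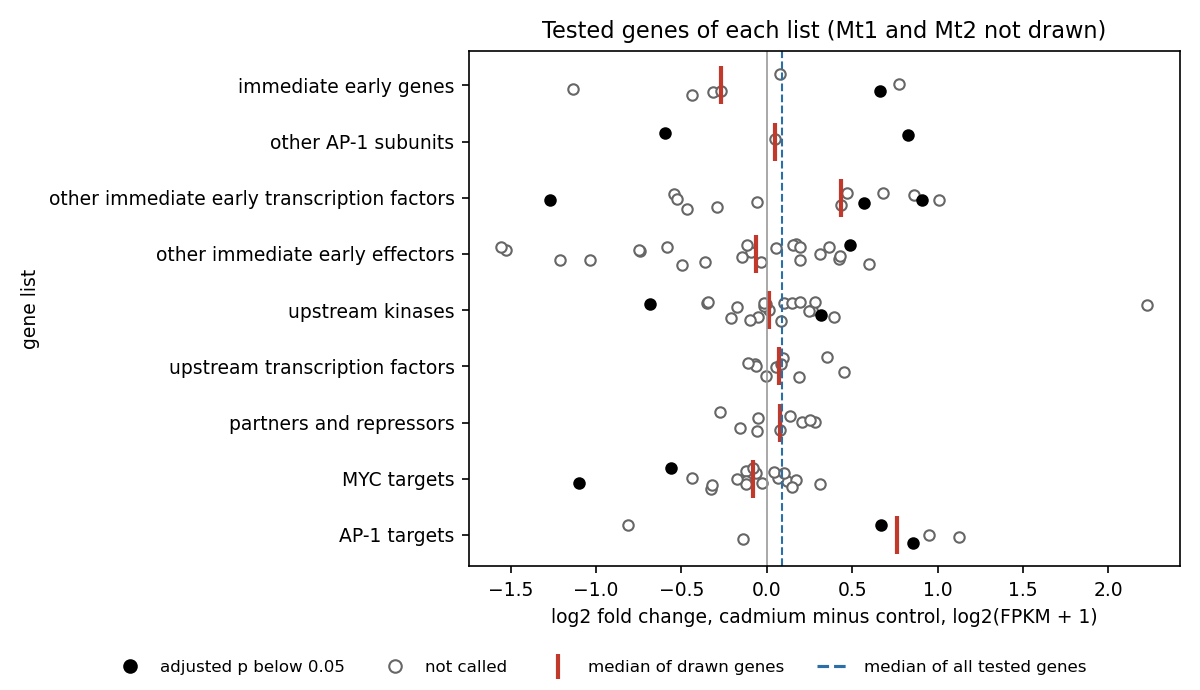
Log2 fold change (cadmium minus control, log2(FPKM + 1) scale) of each tested gene of the 10 immediate early genes and of 8 lists of related genes, except Mt1 and Mt2. Points are filled where the adjusted p was below 0.05. A red bar is the median of the drawn genes, and the dashed line is that of all tested genes, 0.09. Mt1 and Mt2 are AP-1 targets called higher, and the red bar of that list leaves them out. Filled points lie on both sides of 0 among the AP-1 subunits, transcription factors and kinases, on the lower side for MYC targets and on the higher side for AP-1 targets; the point far right among the kinases is Egfr.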

How the data were processed

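Liver RNA was measured in 3 cadmium and 3 control libraries, grouped by their titles. Per the submitters' processing notes cutadapt, STAR, SAMtools, MACS2 and DESeq2 were used with mm10, with no role given; counter, annotation and strand setting are not named there. The authors' deposited FPKM table holds 55335 genes. The authors made the second deposited table by scaling counts with a size factor per library and taking log2 of the result plus 1, as its values show, and added their own log2 fold change per gene. The authors' p-value and FDR per gene were deposited without the test that gave them, which is not given in the sources here. Undoing log2 and subtracting 1 gave whole multiples of 1 step per library for 100% of nonzero values within 0.05 of a read, taken as recovered reads.

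The 10 genes and all lists were chosen with earlier results of these data known. limma 3.58.1 (R 4.3.3; variance trend, robust moderation, two-sided) was fitted to log2(FPKM + 1), which understates changes of low genes, and p-values were Benjamini-Hochberg adjusted over 9908 genes. Pathway genes named were called list members with the smallest p, at most 4 a list. The fit was also run on simulated data with independent noise per gene and no shift of whole libraries. That run says nothing on how such shifts affect the calls. Alternatives changed the pseudocount, filter, scaling, table, moderation and libraries.

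The labels give the replicate number as a batch that holds 1 cadmium and 1 control library, so the numbers pair libraries. Deviations from group means correlated at -0.21, -0.23 and -0.02 between same-numbered libraries. Between cadmium and control libraries of different numbers they correlated at -0.101 to 0.285, so same-numbered libraries were not more alike. Coordinates and overlaps are from GENCODE M21 (mm10) and promoters from RefSeq (GRCm38.p6). The promoter set held no window for Ier2 and Myc, and the window of Egr1 was left out.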

Additional observations from a re-analysis of the deposited data

How the results depend on the processing

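Numbers of genes called higher and lower in cadmium varied with the processing, against 779 and 180 in the main fit. They were 31 and 6 with no filter, 347 and 298 after quantile normalization, 510 and 233 after upper quartile scaling, 381 and 493 on the deposited log2 scale, 380 and 489 with voom on the recovered reads, and 488 and 416 with voom over genes with 10 reads in 3 libraries. With the replicate block they were 184 and 64. Leaving out 1 library gave 78 to 539 higher and 23 to 242 lower. Without both libraries of low mitochondrial rRNA (control replicate 1 and cadmium replicate 2) 478 were higher and 244 lower. That fit and the voom fit over more genes were added after the data were seen. All tested genes had a median log2 fold change of 0.09 in the main fit, of -0.06 on the deposited log2 scale and of -0.01 after quantile normalization.

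Of the 10 immediate early genes 1 was called higher and 0 lower in the main fit. With no filter, and with the replicate block, 0 were called higher, and with no filter 0 of the 12 named pathway genes kept their call. Leaving out 1 library gave 0 to 1 higher and 0 to 2 lower. On the deposited log2 scale, in both voom fits, and without both libraries of low mitochondrial rRNA, 1 was called lower, Jund in the first 3 and Jun in the last. Klf6 was higher in all 17 alternatives and called in 13, with log2 fold changes of 0.56 to 0.96 and adjusted p of 0.0154 to 0.0905 (limma). The replicate block ended the calls of Klf6 and of 7 of those 12 and ended no other call of a member. Egr1 changed sign without being called, at -0.0618 on the deposited log2 scale, -0.0831 and -0.0819 in the voom fits, -0.00188 after quantile normalization, and -0.34 to 0.45 over the fits that left out 1 library. Why the counts moved was not tested. Read numbers limit Fos, Fosb and Atf3.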
